A study of Mus musculus with 36 samples.

Results

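The metallothioneins Mt1, Mt2 and Mt3 are 3 of 56184 gene symbols in a count table of mouse brain and 3 of the 16255 genes with enough counts to be tested. They were chosen by name, with their levels in both genotypes already known, so their genotype differences are described and not tested. Mt3 mRNA was about 5 times as abundant in Gpt2-knockout brains, and every knockout library lay above every wild-type library. Mt1 and Mt2, which lie 26.5 and 20.1 kb further along the chromosome, overlapped between genotypes. Gpt2 encodes the mitochondrial alanine transaminase, which interconverts alanine and α-ketoglutarate with pyruvate and glutamate. The 36 libraries came from 4 groups: 8 Gpt2-KO brains given dm-αKG by intraperitoneal injection at 600 mg per kg (KO-aKG), 10 Gpt2-KO brains given vehicle (KO-Veh), 8 Gpt2-WT brains given dm-αKG (WT-aKG) and 10 Gpt2-WT brains given vehicle (WT-Veh). dm-αKG is a methyl ester form of α-ketoglutarate that can enter cells. All brains were taken on postnatal day 19, and 10 mg of tissue was used per RNA preparation. The labels do not give the brain region, sex, strain, knockout design or number of injections, and none says that each library is a separate animal. The p-values below therefore measure the spread between these samples, which may be partly technical.

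Metallothioneins are small, cysteine-rich proteins that bind zinc and copper and buffer their free levels. Mt1 and Mt2 are inducible in many tissues: zinc activates the transcription factor MTF1, which binds metal response elements in their promoters, and glucocorticoids and stress raise them as well. In brain both are expressed mainly by astrocytes. Mt3, first described as growth inhibitory factor, is expressed mainly in the nervous system, in neurons and astrocytes, and is not induced by zinc in the way Mt1 and Mt2 are. The fourth gene of the cluster, Mt4, belongs to stratified epithelia.

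The promoters are shown because the 3 genes share a cluster and did not move together. In GENCODE M21 on GRCm38 all are protein-coding genes on the plus strand of chromosome 8: Mt3 at chr8:94152607-94154146, Mt2 at chr8:94172664-94173568 and Mt1 at chr8:94179082-94180327. The RefSeq promoter windows on GRCm38.p6 matched all 3 symbols, and the bases before the GENCODE start are printed here from 5′ to 3′ on the plus strand, with matches to the core of the metal response element (TGCACNC or TGCGCNC, either strand) in capitals.
Mt3, chr8:94152357-94152606: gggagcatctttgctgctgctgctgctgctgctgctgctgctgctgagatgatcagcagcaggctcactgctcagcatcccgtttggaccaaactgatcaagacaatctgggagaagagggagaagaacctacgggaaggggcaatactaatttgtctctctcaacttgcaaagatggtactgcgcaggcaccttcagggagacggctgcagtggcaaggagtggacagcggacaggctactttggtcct
Mt2, chr8:94172368-94172663: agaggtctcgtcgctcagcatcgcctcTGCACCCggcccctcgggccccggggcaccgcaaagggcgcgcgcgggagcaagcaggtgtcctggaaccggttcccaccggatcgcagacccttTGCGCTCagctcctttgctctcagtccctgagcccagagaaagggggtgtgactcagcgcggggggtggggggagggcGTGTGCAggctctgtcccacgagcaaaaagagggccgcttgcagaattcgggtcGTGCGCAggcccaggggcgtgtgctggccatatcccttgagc
Mt1, chr8:94178839-94179081: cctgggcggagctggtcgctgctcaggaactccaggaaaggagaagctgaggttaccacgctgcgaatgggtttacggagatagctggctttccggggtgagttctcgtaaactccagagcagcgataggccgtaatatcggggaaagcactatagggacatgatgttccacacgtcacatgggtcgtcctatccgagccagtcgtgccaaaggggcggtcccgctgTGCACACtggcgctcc
The printed Mt2 bases hold 4 such matches, the Mt1 bases hold 1 and the Mt3 bases hold none. Over the whole windows of 300 bases, which run past the start, Mt2 had 4 matches, Mt1 had 3 and Mt3 had 1. Of 32841 RefSeq promoter windows of that length, 25.7% held at least 1 match, 1.97% held at least 3 and 0.518% held at least 4. The core of the antioxidant response element (TGACNNNGC, in 12.4% of windows) occurred once in Mt2, overlapping none of the capitals, and in neither of the others. The glucocorticoid response motif AGAACA (in 19% of windows) and the CHOP-ATF composite element (TGATGNAAN, in 3.95% of windows) had no match in any of the 3 windows. The Mt3 bases also carry a run of 11 CTG repeats. A match is a description of letters and does not show that a factor binds there. The lack of a match covers these 300 bases only and says nothing of sequence outside them.

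The targeted gene was read first. Gpt2 had 2.37 ± 0.70 CPM in KO-aKG (SD, n = 8), 2.04 ± 0.84 CPM in KO-Veh (n = 10), 32.3 ± 3.94 CPM in WT-aKG (n = 8) and 30.2 ± 5.61 CPM in WT-Veh (n = 10), with no overlap between genotypes. All levels are CPM, counts relative to the library total, after TMM scaling, which adjusts those totals for composition, unless the authors' CPM is named. Library totals ran from 5768225 to 13267397 counts. Between genotypes, 304 genes differed with dm-αKG (1.87% of those tested) and 701 with vehicle (4.31%), by edgeR's quasi-likelihood test at a Benjamini-Hochberg adjusted p under 0.05. All 8 neuronal and all 16 astrocyte marker genes were detected. The brain pieces differed in region: 1 of 8 KO-aKG, 1 of 10 KO-Veh, 4 of 8 WT-aKG and 3 of 10 WT-Veh libraries were high in cerebellar markers, and Xist exceeded Ddx3y in 4, 2, 5 and 2 libraries of those groups. The summed striatal markers were at 129.8 to 634.4 CPM in KO-aKG, 103.0 to 868.0 in KO-Veh, 67.6 to 456.3 in WT-aKG and 75.6 to 355.0 in WT-Veh, with mean log2 scores of 3.82, 3.55, 2.72 and 2.82. The forebrain glutamatergic score averaged 5.43 in KO-aKG, 6.35 in KO-Veh, 5.42 in WT-aKG and 5.39 in WT-Veh. The ranges of the striatal sums overlapped, and the part of these markers in the Mt3 difference was not tested. In bulk tissue, fewer cells of a type and less RNA per cell cannot be told apart.

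Mt3 was the member that separated the genotypes. In KO-aKG it had a lowest value of 261.3, a median of 547.8 and a highest of 642.2 CPM. In KO-Veh the lowest, median and highest were 304.6, 521.6 and 740.6 CPM. In WT-aKG they were 53.7, 88.0 and 242.5 CPM, and in WT-Veh 46.2, 76.8 and 241.1 CPM. The 18 knockout libraries averaged 495.7 ± 124 CPM and the 18 wild-type libraries 96.3 ± 56.2 CPM (SD), and the ranges did not touch. The gap between them was narrow: the lowest knockout library, KO-aKG replicate 5, stood at 261.3 CPM and the highest wild-type library, WT-aKG replicate 6, at 242.5 CPM. Across all genes tested, 15 (0.0923%) had every knockout above every wild type, 67 (0.412%) had KO-aKG entirely above WT-aKG and 39 (0.24%) had KO-Veh entirely above WT-Veh. Mt3 is among each of these by the choice of members, so nothing is read from it. The genotypes also did not overlap on the authors' CPM, where Mt3 averaged 545.7 ± 111 in KO-aKG, 468.6 ± 125 in KO-Veh, 102.8 ± 64.9 in WT-aKG and 87.9 ± 65.8 in WT-Veh. The gap was narrow there too, between other libraries: KO-Veh replicate 6 was the lowest knockout at 279.3 and WT-Veh replicate 3 the highest wild type at 272.0.

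The fitted Mt3 difference was 2.28 on the log2 scale in KO-aKG over WT-aKG (SE 0.29, 95% interval 1.68 to 2.88), which is 4.86-fold and rank 21 of all genes tested by log2 fold change. It was 2.44 in KO-Veh over WT-Veh (SE 0.26, 95% interval 1.90 to 2.97), which is 5.41-fold and rank 11. Its mean raw counts were 5515 in KO-aKG and 5270 in KO-Veh against 1154 in WT-aKG and 1026 in WT-Veh, so counting error is small beside the spread between libraries. Without the 9 libraries high in cerebellar markers the log2 differences were 2.42 with dm-αKG and 2.197 with vehicle. That vehicle value was the lowest of 15 alternative settings with vehicle, the highest being 2.55, and with dm-αKG the 15 ran from 2.24 to 2.53.

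**Figure D1:**
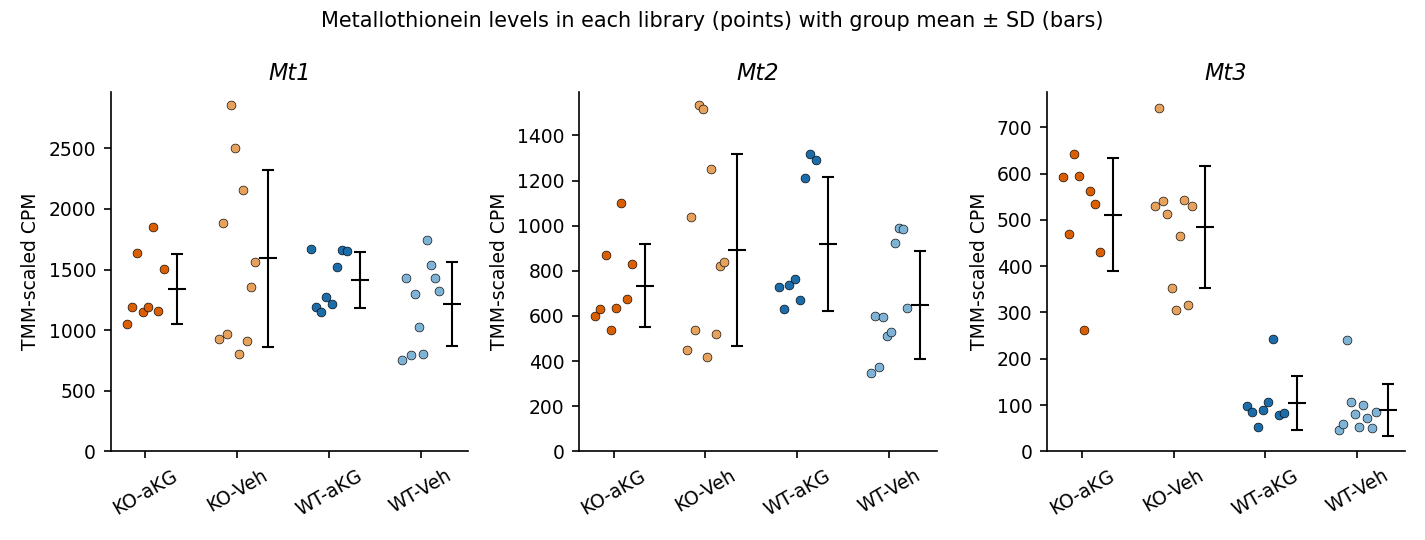
TMM-scaled CPM (y axis, from 0) of Mt1, Mt2 and Mt3 in each of the 36 libraries by group (x axis). Points are libraries, and the bar beside them is the group mean ± SD. The Mt3 points of KO-aKG and KO-Veh start at 261.3 CPM, above all WT-aKG and WT-Veh points, while the Mt1 and Mt2 points overlap between all groups.

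Within the wild types, Mt3 was low except in a pair of libraries. WT-aKG replicate 6 had 242.5 CPM and WT-Veh replicate 3 had 241.1 CPM, while the next highest libraries of those groups had 107.1 and 105.9 CPM. At Gpt2, WT-aKG replicate 6 had 31.4 CPM and WT-Veh replicate 3 had 22.04 CPM, both above the highest knockout value of 3.30 CPM. The 22.04 CPM of WT-Veh replicate 3 was, however, the lowest Gpt2 level of any wild-type library. Wdr83os, a chromosome 8 gene that was higher in knockouts, stood at 14.8 CPM in WT-aKG replicate 6 and 18.9 CPM in WT-Veh replicate 3. Both lay below the lowest knockout value of 22.6 CPM. The value in WT-Veh replicate 3 was nevertheless the highest of any wild-type library, against a WT-Veh mean of 13.3 ± 2.77 CPM (SD). Mt1 was 1521 CPM and Mt2 1210 CPM in WT-aKG replicate 6, and 795.0 and 372.6 CPM in WT-Veh replicate 3. Leaving out WT-aKG replicate 6 gave a Mt3 difference of 2.58 with dm-αKG, and leaving out WT-Veh replicate 3 gave 2.74 with vehicle.

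Mt1 was the most abundant member. It ran from 1052 through a median of 1189 to 1854 CPM in KO-aKG and from 807.1 through 1457 to 2859 CPM in KO-Veh. In WT-aKG it ran from 1147 through 1397 to 1666 CPM, and in WT-Veh from 756.2 through 1310 to 1740 CPM. The groups overlapped widely, and the SD of KO-Veh, 730.9 CPM, was the largest of the 4 groups, against 287.5 in KO-aKG, 231.9 in WT-aKG and 346.6 in WT-Veh. The log2 difference was -0.08 in KO-aKG over WT-aKG (SE 0.22, 95% interval -0.53 to 0.37), which turned to 0.08 when libraries were scaled by their totals alone. It was 0.39 in KO-Veh over WT-Veh (SE 0.20, 95% interval -0.01 to 0.80).

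Mt2 gave a similar picture at its own level. It ran from 538.5 through a median of 655.7 to 1099 CPM in KO-aKG and from 417.3 through 829.9 to 1533 CPM in KO-Veh. In WT-aKG it ran from 630.6 through 749.9 to 1317 CPM, and in WT-Veh from 347.2 through 596.6 to 991.4 CPM. No pair of groups separated. The log2 difference was -0.32 in KO-aKG over WT-aKG (SE 0.26, 95% interval -0.85 to 0.21), which turned to 0.10 without the 9 libraries high in cerebellar markers, and 0.46 in KO-Veh over WT-Veh (SE 0.23, 95% interval -0.01 to 0.94). The antisense gene Gm45774 overlaps Mt2 and held 2168 counts over all libraries, and without a stated strand setting the reads of the pair cannot be told apart. Mt1 and Mt2 are close paralogs, and the counts that the authors' CPM imply were not whole in 13 libraries for Mt1, 22 for Mt2 and 19 for Mt3 (tolerance 0.02), so part of their counts may be shared between copies. Over all genes with an authors' CPM, 85.6% to 88.7% of the implied counts of a library were whole. Mt4 had 7 counts in all, at most 1 per library, and was not tested.

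dm-αKG had no detected effect on any member. Between KO-aKG and KO-Veh the log2 difference was -0.25 for Mt1 (SE 0.21, adjusted p = 0.671), -0.28 for Mt2 (SE 0.25, adjusted p = 0.686) and 0.08 for Mt3 (SE 0.27, adjusted p = 0.937), by edgeR's quasi-likelihood test over all genes. The Mt1 value turned to 0.02 on the authors' CPM, and the Mt3 value to -0.02 with the replicate number as a block. Between WT-aKG and WT-Veh it was 0.22 for Mt1 (SE 0.21, adjusted p = 0.892), 0.50 for Mt2 (SE 0.25, 95% interval 0.00 to 1.00, unadjusted p = 0.0492, adjusted p = 0.581) and 0.23 for Mt3 (SE 0.27, adjusted p = 0.936). The Mt3 value in wild types turned to -0.07 without WT-aKG replicate 6. The 95% intervals for Mt3 ran from -0.46 to 0.62 in knockouts and from -0.31 to 0.77 in wild types, so changes of that size are not excluded. At an adjusted p under 0.05 no gene of 16255 was called in either comparison by edgeR, against 1973 (12.1%) in knockouts and 1389 (8.55%) in wild types at an unadjusted p under 0.05 and 20 and 90 by DESeq2.

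Whether dm-αKG altered the genotype difference was tested as an interaction. The log2 interaction was -0.47 for Mt1 (SE 0.30, adjusted p = 0.961), -0.78 for Mt2 (SE 0.35, unadjusted p = 0.0322, adjusted p = 0.961) and -0.15 for Mt3 (SE 0.38, adjusted p = 0.982), by edgeR. The Mt3 value turned to 0.15 without WT-aKG replicate 6 and to 0.23 without the 9 libraries high in cerebellar markers, where the Mt2 value was -0.27. No gene of the 16255 was called by edgeR or by DESeq2, and 729 (4.48%) had an unadjusted p under 0.05 by edgeR. The Mt3 difference between genotypes was thus present under both treatments, and the design did not detect a change in it.

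Mt1 and Mt2 moved together from library to library, and no such relation was detected for Mt3. After subtraction of each group's mean from log2 CPM, Mt1 and Mt2 had Pearson's r = 0.92 over 36 libraries (Spearman's rho = 0.91; permutation p = 1e-05 for both, the smallest that 100000 permutations can give; adjusted p = 9e-05). The r was 0.99 in the 18 knockouts and 0.83 in the 18 wild types, 0.96 without the 9 libraries high in cerebellar markers, and 0.91 without the pair of libraries farthest from the median of Mt1. Counts of Mt1 and Mt2 may be partly shared between these paralogs, and the part of that in their r was not tested. Mt1 with Mt3 had r = 0.07 (rho = 0.06, permutation p = 0.692, adjusted p = 0.856), and Mt2 with Mt3 had r = 0.02 (rho = -0.03, permutation p = 0.919, adjusted p = 0.919). These are among 18 relations adjusted together. In KO-Veh, replicate 4 had the highest Mt1 and Mt2, at 2859 and 1533 CPM, with 513.1 CPM of Mt3, and replicate 2 had the highest Mt3, at 740.6 CPM, with 1881 CPM of Mt1 and 1041 of Mt2. Replicate 6 had the lowest value of all 3, at 807.1, 417.3 and 304.6 CPM. Mt1 and Mt2 thus shared their highest and their lowest library in KO-Veh, and Mt3 shared only the lowest. The next lowest Mt3 values were in replicates 9 and 5, at 316.3 and 352.9 CPM, with 1353 and 2502 CPM of Mt1. Within KO-Veh the r of Mt1 with Mt3 was 0.11.

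**Figure D2:**
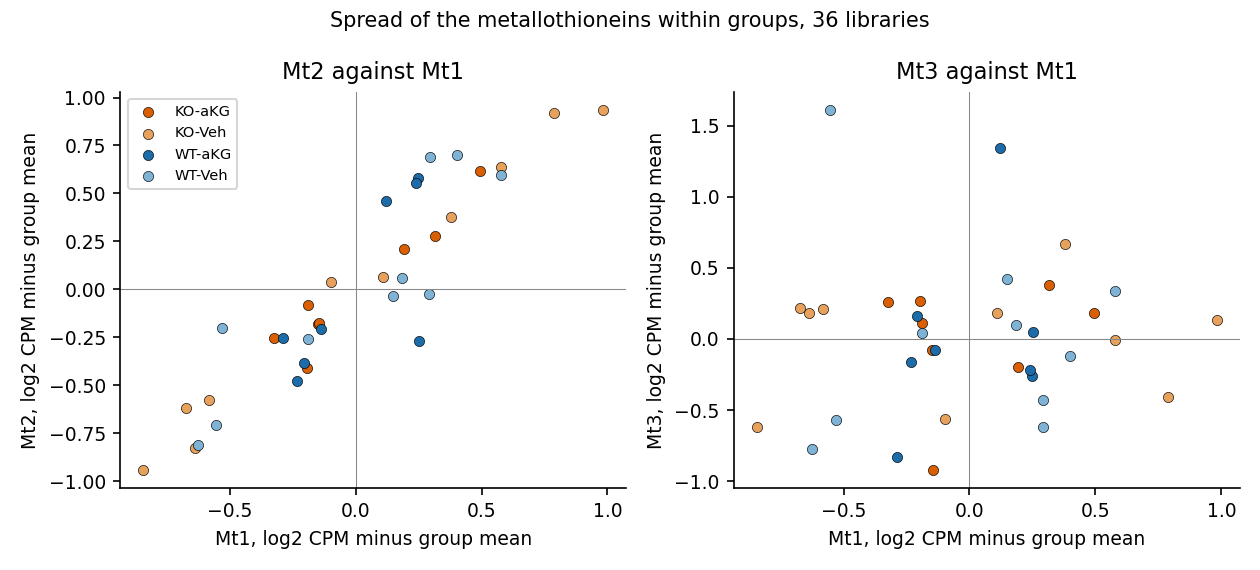
Log2 CPM minus the group mean for Mt2 (left, y axis) and Mt3 (right, y axis) against Mt1 (x axis), 1 point per library in 36 libraries, coloured by group. The Mt2 points follow a rising line (r = 0.92), while the Mt3 points show none (r = 0.07), with the 2 high wild-type libraries at the top.

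The rest of chromosome 8 was read because Mt3 and Gpt2 are linked. The start of Mt3 lies 8.66 Mb beyond the start of Gpt2, and the labels give no strain, so an effect of Gpt2 loss and an effect of alleles linked to the knockout on chromosome 8 cannot be told apart by this design. Within 1 Mb of Gpt2, leaving out Gpt2 itself, 4 of 36 tested genes were called with dm-αKG (11.1%) and 8 of 36 with vehicle (22.2%). From 1 to 5 Mb the counts were 2 of 48 (4.17%) and 4 of 48 (8.33%), and from 5 to 10 Mb, leaving out the metallothioneins, 2 of 65 (3.08%) and 3 of 65 (4.62%). From 10 to 20 Mb they were 7 of 161 (4.35%) and 18 of 161 (11.2%). Beyond 20 Mb on the chromosome they were 14 of 490 (2.86%) and 24 of 490 (4.9%), and on the other autosomes 234 of 13997 (1.67%) and 582 of 13997 (4.16%). Of these bands the one within 1 Mb of Gpt2 had the highest share under both treatments, and the one from 10 to 20 Mb the next highest. The band from 5 to 10 Mb, which holds Mt3, lay below both, so the share did not fall steadily with distance.

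Between Gpt2 and Mt3, 0 of 43 tested genes were called with dm-αKG by edgeR or DESeq2, with 6 at an unadjusted p under 0.05, and 2 of 43 with vehicle (4.65%), both lower. These were Phkb, a phosphorylase kinase subunit (log2 difference -0.52, not called in 6 of 20 fits without 1 library), and N4bp1 (-0.39). The largest absolute log2 difference among those 43 genes was 1.98 with dm-αKG and 1.37 with vehicle, in genes that were not called. Within 1 Mb of Mt3, 1 of 27 other genes was called with dm-αKG (3.7%) and 3 of 27 with vehicle (11.1%). Of the 5 nearest tested genes before the cluster, 0 were called in either comparison by edgeR or DESeq2, and 0 had an unadjusted p under 0.05. Among them, the log2 difference with vehicle was -0.29 for Bbs2, a subunit of the ciliary BBSome, -0.15 for Ogfod1, 0.01 for Nudt21, a polyadenylation factor, and -0.03 for Gnao1, a G protein subunit. Bbs2, the nearest of them, had 5.34 ± 1.12 CPM in KO-aKG, 4.67 ± 1.06 in KO-Veh, 5.48 ± 1.82 in WT-aKG and 5.73 ± 0.85 in WT-Veh.

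On the other side, 2 of the 5 nearest tested genes passed the test. Herpud1, which takes part in the degradation of misfolded endoplasmic reticulum proteins and starts 234 kb beyond Mt3, was higher by 0.70 with dm-αKG (SE 0.16, adjusted p = 0.0131, or 0.0509 without KO-aKG replicate 8) and by 0.71 with vehicle (SE 0.14, adjusted p = 0.002), by edgeR. It had 58.8 ± 12.5 CPM in KO-aKG, 61.5 ± 12.3 in KO-Veh, 36.1 ± 8.89 in WT-aKG and 37.5 ± 9.28 in WT-Veh. Cpne2, a copine, was lower with vehicle by 0.57 (SE 0.13, adjusted p = 0.00841) and had -0.38 with dm-αKG (adjusted p = 0.182). Nup93, a nuclear pore subunit and the nearest tested gene after Mt1, had -0.34 with dm-αKG (adjusted p = 0.319) and -0.42 with vehicle (adjusted p = 0.101), while Rpl10-ps5 and C78859 were not called. Gm45774, inside the cluster, had -0.14 and 0.43 and was not called either.

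The next called genes start 0.19 to 3.16 Mb before Gpt2, on the side away from Mt3. Their differences were smaller than that of Mt3, which was chosen with its difference known, so nothing is read from the comparison of size. With dm-αKG and then with vehicle, the log2 difference was 1.02 and 1.13 for Wdr83os, 1.45 and 1.62 for Gm26664 (with dm-αKG not called in 12 of 16 fits without 1 library), 1.19 and 1.17 for the cytokine Il15, 0.69 and 0.61 for Gadd45gip1, a mitochondrial ribosome component, and 0.63 and 0.57 for Scoc. Trmt1, a tRNA methyltransferase (0.60), and Orc6, an origin recognition subunit (0.40), were called with vehicle. Once group means were removed, the highest r of Mt3 with the 149 tested genes within 10 Mb of Gpt2 was 0.53, with Junb. Over all 10887 genes averaging 5 CPM or more the highest was 0.61. A fixed difference between genotypes cannot show in such values, so nothing on linkage is read from them.

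**Figure D3:**
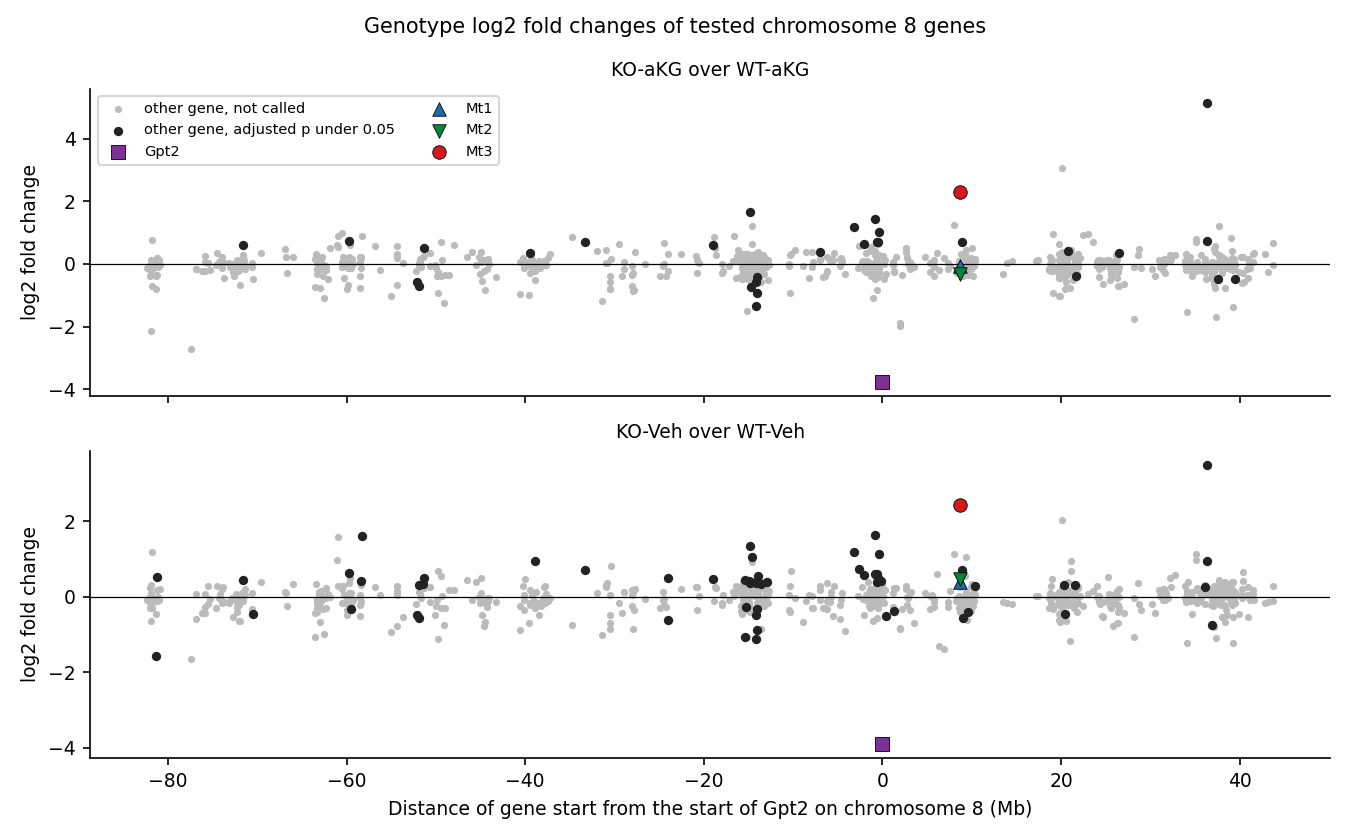
Log2 fold change of tested chromosome 8 genes in KO-aKG over WT-aKG (top) and KO-Veh over WT-Veh (bottom), against the distance of each gene's start from the start of Gpt2 in Mb. Black points are genes with an adjusted p under 0.05, grey points the others; Mt3 stands at 2.28 and 2.44 at 8.66 Mb, while at nearly the same place Mt1 stands at -0.08 and 0.39 and Mt2 at -0.32 and 0.46.

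Other genes of zinc and copper handling were called about as seldom as genes in general, 1.87% of which were called with dm-αKG and 4.31% with vehicle. Of 30 listed genes, 29 were tested: 0 were called with dm-αKG by edgeR or DESeq2, with 4 at an unadjusted p under 0.05, and with vehicle 1 was higher and none lower (median log2 difference 0.00 with dm-αKG and -0.05 with vehicle, against -0.02 over all genes in both). The called gene was Slc30a4, a transporter that loads zinc into vesicles, at 0.45 (SE 0.12, adjusted p = 0.031, edgeR), with 50.1 ± 8.83 CPM in KO-Veh and 36.8 ± 4.87 CPM in WT-Veh. That call was lost without WT-Veh replicate 1, 2 or 5, without KO-Veh replicate 1, 4, 5 or 10, and without the 9 libraries high in cerebellar markers (adjusted p = 0.0562). Slc30a1, the plasma membrane zinc exporter and itself an MTF1 target, had 0.02 with dm-αKG and 0.07 with vehicle. Slc30a3, which loads zinc into synaptic vesicles, had -0.20 and 0.39 with SEs of 0.50 and 0.45. Of the 8 listed MTF1 targets outside the metallothioneins, 0 were called in either comparison by edgeR or DESeq2, with 2 at an unadjusted p under 0.05 with dm-αKG and 0 with vehicle (median log2 difference 0.08 and 0.06). Of 12 NRF2 targets, 1 was called: Gsr, glutathione reductase, lower by 0.69 with dm-αKG (adjusted p = 0.0201, and over 0.05 without WT-aKG replicate 3 or 6 or KO-aKG replicate 8) and by 0.57 with vehicle (adjusted p = 0.0197), by edgeR.

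The stress-responsive lists held more called genes. Of 30 ATF4 targets, genes of the integrated stress response, 20 were higher with dm-αKG and 22 with vehicle, and none was lower (median log2 difference 0.93 and 0.94). Over all genes tested, 1.12% were higher and 0.751% lower with dm-αKG, and 2.6% were higher and 1.72% lower with vehicle. Of 23 glucocorticoid-induced genes, 1 was higher with dm-αKG and 10 with vehicle, and none was lower (median 0.44 and 0.53). The gene called with dm-αKG was Plin4, a lipid droplet protein (2.65), which was not called in 7 of 16 fits without 1 library. With vehicle the smallest p-values belonged to Plin4 (3.24), Map3k6 (2.10), Fkbp5, a chaperone that restrains the glucocorticoid receptor (1.56), Sult1a1 (1.23), Arrdc2 (1.05) and Lcn2, a lipocalin of inflammation (0.83). The count of 10 was 5 without the 9 libraries high in cerebellar markers, and it fell to 4 without KO-Veh replicate 4, 5 without replicate 5, 5 without replicate 10, 6 without replicate 9 and 6 without WT-Veh replicate 2. Fkbp5 had 20.3 ± 7.60 CPM in KO-aKG, 33.8 ± 21.6 in KO-Veh, 10.3 ± 4.12 in WT-aKG and 11.4 ± 4.98 in WT-Veh. Like Mt1 and Mt2, it had its widest spread in KO-Veh.

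**Figure D4:**
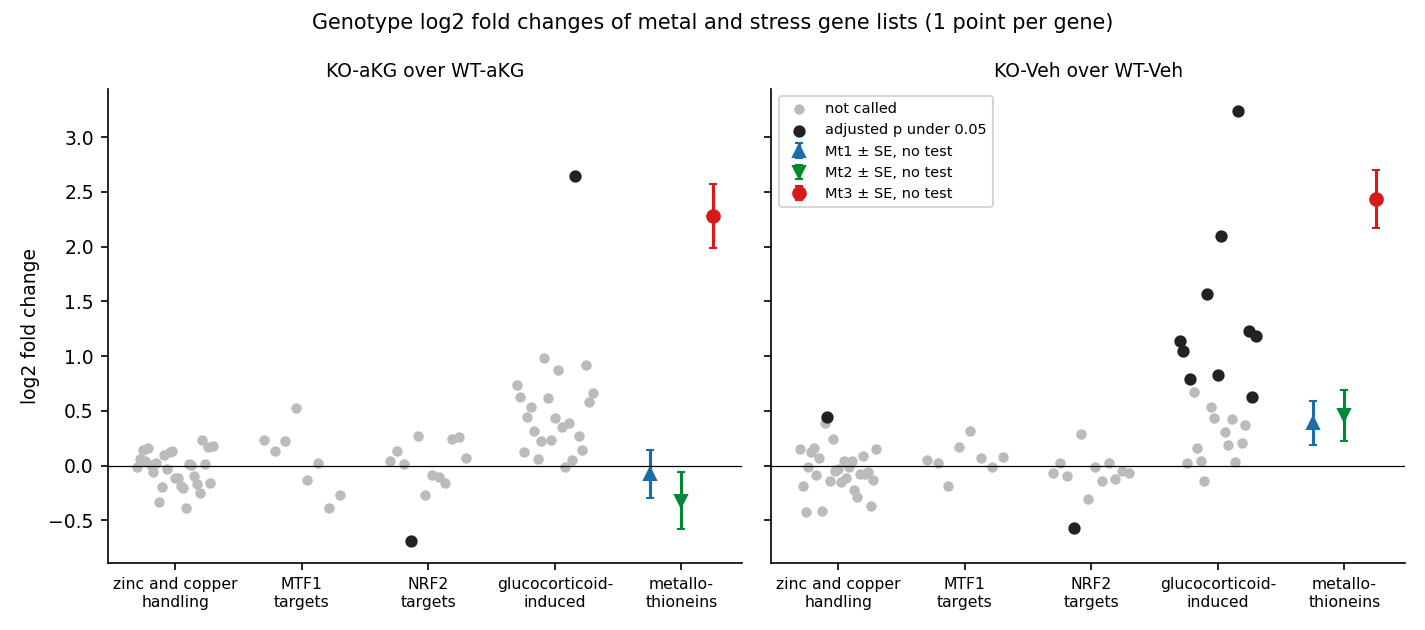
Log2 fold changes (y axis) of listed genes in KO-aKG over WT-aKG (left) and KO-Veh over WT-Veh (right), 1 point per gene, with Mt1, Mt2 and Mt3 ± SE beside them. Black points passed the test. Zinc and copper genes scatter around 0, while Mt3 stands at 2.28 and 2.44 among the higher glucocorticoid-induced genes.

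Within groups, Mt1 and Mt2 followed the glucocorticoid-induced list, and no relation was detected for Mt3. With the list's mean log2 CPM, group means removed, Mt1 had r = 0.75 over 36 libraries (rho = 0.71, adjusted permutation p = 0.00024) and Mt2 had r = 0.77 (rho = 0.79, adjusted permutation p = 9e-05). The r was 0.81 for Mt1 and 0.84 for Mt2 in knockouts, 0.62 and 0.74 in wild types, and 0.70 and 0.73 without the pair of libraries farthest from the list's median. Mt3 had r = 0.04 (adjusted permutation p = 0.88). By single genes, 8 of 23 members of the list had an r above 0.5 with Mt1 and 9 with Mt2, among 1.99% and 1.73% of all genes compared, and none with Mt3. Plin4 had r = 0.74 with Mt1 and 0.74 with Mt2, Tsc22d3, a glucocorticoid-induced leucine zipper, had 0.64 and 0.73, and Arrdc2 had 0.68 and 0.68, while Per1 and Dusp1 had 0.08 and 0.03 with Mt1. The libraries share depth and tissue content, and the part of these in the relation was not tested.

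**Figure D5:**
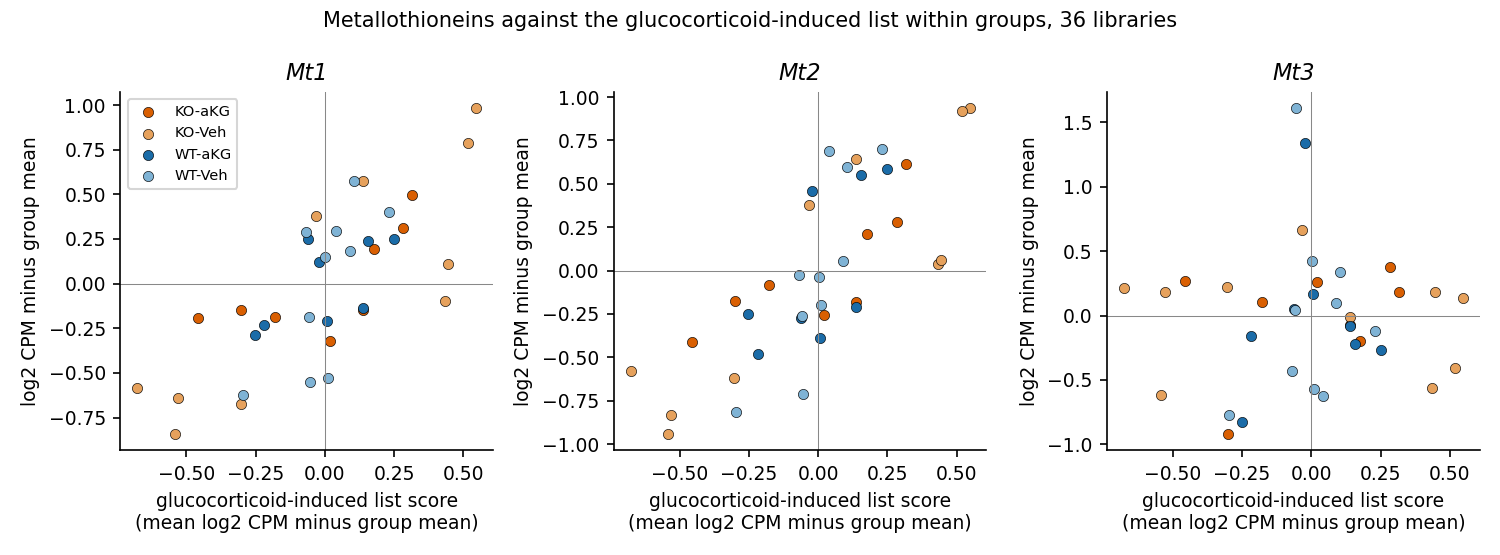
Log2 CPM minus the group mean of Mt1, Mt2 and Mt3 (y axes) against the mean log2 CPM of the glucocorticoid-induced list minus its group mean (x axes), 1 point per library in 36 libraries. Mt1 (r = 0.75) and Mt2 (r = 0.77) rise with the list, and Mt3 (r = 0.04) does not.

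With the astrocyte list the r of Mt1 and Mt2 was smaller. Mt1 had r = 0.55 (rho = 0.58, adjusted permutation p = 0.00292) and Mt2 had r = 0.58 (rho = 0.61, adjusted permutation p = 0.00126), against -0.25 for Mt3 (adjusted permutation p = 0.279). Here too single genes stood out: 4 of 16 had an r above 0.5 with Mt1 and 4 with Mt2, against 1.99% and 1.73% of all genes compared. None did with Mt3. The r of the 16 ran from -0.06 to 0.81 for Mt1 and from 0.06 to 0.82 for Mt2. Within the knockouts alone Mt1 kept r = 0.54 with an adjusted permutation p of 0.0663, and passed by rank (rho = 0.60, adjusted permutation p = 0.0396). Mt2 passed there by both, with r = 0.58 (adjusted permutation p = 0.045) and rho = 0.61 (adjusted permutation p = 0.0396). Of the 16 astrocyte genes 2 were lower with vehicle, the water channel Aqp4 (-1.22, adjusted p = 0.0264, edgeR, and over 0.05 in 5 of 20 fits without 1 library) and Slc7a10 (-0.82, adjusted p = 0.00769), and 0 were called with dm-αKG by edgeR or DESeq2, with 1 at an unadjusted p under 0.05. The list's summed level ran from 3095 to 4582 CPM in KO-aKG, 2648 to 5017 in KO-Veh, 3613 to 4974 in WT-aKG and 2696 to 5213 in WT-Veh. These ranges overlapped between all groups.

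With the zinc and copper list, Mt3 had r = -0.35 over 36 libraries (rho = -0.27, adjusted permutation p = 0.102). In the 18 knockouts r was -0.68 (adjusted permutation p = 0.0124), while rho was -0.53 and did not pass (adjusted permutation p = 0.093). In the 18 wild types r was -0.14 (adjusted permutation p = 0.665). Without the pair of knockouts farthest from the list's median the r in knockouts was -0.46, so it rests in part on them. Mt1 and Mt2 had r = 0.06 and 0.10 with that list. With the ATF4 list over 36 libraries, r was 0.43 for Mt1, 0.36 for Mt2 and 0.19 for Mt3. None of these r had an adjusted permutation p under 0.05. By rank Mt1 passed (rho = 0.44, adjusted permutation p = 0.0441). Mt2 (rho = 0.38, adjusted permutation p = 0.0885) and Mt3 (rho = 0.22, adjusted permutation p = 0.346) did not. Without the 9 libraries high in cerebellar markers, Mt1 had r = 0.57 (adjusted permutation p = 0.0215) and Mt2 r = 0.54 (adjusted permutation p = 0.0232). The cerebellar list had r = 0.03, 0.25 and -0.18 with Mt1, Mt2 and Mt3, with adjusted permutation p-values from 0.279 to 0.904.

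The genes most like each member were sought among 10887 genes averaging 5 CPM or more, by Pearson's r of log2 CPM over 36 libraries with group means removed. For Mt1 the closest were Mt2 (0.92), Pink1, a kinase of mitochondrial quality control (0.89), Igbp1, a regulator of protein phosphatases (0.86), Dcxr, a sugar reductase (0.84), and Pnpla2, the adipose triglyceride lipase (0.81). For Mt2 they were Mt1, Gjb6, the astrocytic connexin 30 (0.82), Pnpla2 (0.81), Mxd4, a MYC antagonist (0.80), and Ttyh1 (0.79). For Mt3 they were U2af1l4 (0.61), Dscaml1, a cell adhesion molecule (0.60), Cyth2, an ARF exchange factor (0.59), the cytokine Mif (0.59) and Rexo1 (0.58). Above r = 0.7 stood 24 genes for Mt1, 21 for Mt2 and 0 for Mt3. None of the 5 closest genes to Mt3 lies on chromosome 8, which holds 804 of the 15364 tested genes that could be placed. With group means removed, a fixed difference between genotypes cannot show in these r values, so nothing on linkage is read from them. These likenesses are descriptions over libraries that share depth and tissue content.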

How the data were processed

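Poly-A RNA of 36 brain samples was captured with oligo-dT primers that carry a sample barcode and a molecular identifier and was tagmented, per the labels' protocols. Per the submitters' processing notes, HISAT2 2.2.1 and featureCounts 2.0.6 were among the tools used. The notes list mm10 beside mm39 with no role for either build, so GENCODE M21 coordinates only locate the genes here. They do not say how shared reads were divided or whether identifiers were collapsed. One deposited table holds estimated counts, written as whole numbers. The other holds CPM, deposited by the authors, whose values imply the same counts before rounding, and served for comparison.

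Counts were filtered (filterByExpr) and fitted in edgeR 4.0.16 (R 4.3.3) with TMM scaling and a robust quasi-likelihood model over all 4 groups. The 5 contrasts were genotype with vehicle, genotype with dm-αKG, treatment in KO, treatment in WT and the interaction, with Benjamini-Hochberg adjustment over all genes. limma 3.58.1 on log2(CPM + 1) and DESeq2 1.42.0 were alternatives. Scripts were tested on simulated data. Correlations used log2 CPM minus group means with 100000 permutations within groups. High cerebellar content means a marker score more than 1 log2 unit over the average library.

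The members and lists were chosen with earlier results of these data known. Genes were named by a rule: the cluster and Gpt2; the 5 nearest tested genes on each side; up to 10 called genes within 10 Mb of Gpt2; up to 6 called members of each list, by p; and the 5 genes most like each member. Junb, Per1, Dusp1, Slc30a1, Slc30a3, Phkb, N4bp1 and Tsc22d3 were added after their values were seen. Some genes that the rule names are not reported here. Same-numbered samples had a mean correlation of deviations of 0.089, against -0.00052 for other pairs, and this difference was not tested. Precision is set by the spread between libraries and by totals of 5768225 to 13267397 counts.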

Additional observations from a re-analysis of the deposited data

Results flagged for a closer look

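Mt3 in WT-aKG replicate 6 was 242.5 CPM, far from the other libraries of its group: the gap to the next library, at 107.1 CPM, was 0.717 of the group's range, above Dixon's 95% critical value of 0.526 for 8 samples. Mt3 in WT-Veh replicate 3 was 241.1 CPM, with a gap to the next library, at 105.9 CPM, of 0.693 of the range, above the critical value of 0.466 for 10 samples. These were 2 of 16 combinations of gene and group examined (Mt1, Mt2, Mt3 and Gpt2 in 4 groups), and chance flags about 1 in 20. WT-aKG replicate 6 was high in cerebellar markers and WT-Veh replicate 3 was not. The part of any sample property in these values was not tested.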

How the results depend on the processing

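Genotype log2 differences of the members kept their direction for Mt3 under 15 alternatives and every left-out library. Leaving out 1 library moved them over -0.16 to -0.03 for Mt1, -0.43 to -0.23 for Mt2 and 2.18 to 2.58 for Mt3 with dm-αKG, and over 0.26 to 0.47, 0.34 to 0.55 and 2.35 to 2.74 with vehicle. Called genes with vehicle, 701, became 256 with library totals alone, 348 with no low-count filter, 324 with only the groups compared, 2675 with the mitochondrial rRNA share as a covariate, and 165, 161 and 157 by limma on CPM with pseudocounts of 1, 0.5 and 5 (197 unfiltered); left-out libraries gave 440 (KO-Veh 10), 467 (KO-Veh 4) to 1662 (KO-Veh 7). With dm-αKG, 304 became 145 with no filter, 611 with a cerebellum covariate, 798 with the rRNA covariate, 599 without the 9 libraries high in cerebellar markers and 510 by DESeq2; left-out libraries gave 133 (KO-aKG 8), 145 (WT-aKG 6), 163 (KO-aKG 2) and 188 (WT-aKG 1) up to 325. Treatment calls, 0 by edgeR, became 20 in KO and 90 in WT by DESeq2, and in WT 1 with the cerebellum covariate, 244 with the rRNA covariate and 1 by unfiltered limma. The treatment difference in KO turned to 0.0198 (pseudocount 1), 0.0199 (0.5), 0.0195 (5) and 0.0198 (unfiltered) for Mt1 by limma and to -0.0203 for Mt3 with the replicate block. Without the 9 libraries, Mt3 turned to -0.16 for treatment in WT and 0.23 for the interaction. Leaving out 1 library gave -0.33 to -0.13 (Mt1), -0.39 to -0.16 (Mt2) and 0.02 to 0.18 (Mt3) for treatment in KO, 0.16 to 0.29, 0.41 to 0.59 and -0.0676 to 0.53 in WT, and -0.55 to -0.34, -0.89 to -0.66 and -0.45 to 0.15 for the interaction. The lowest adjusted p of any member for treatment or interaction was 0.315 (Mt2, treatment in WT). Where a cause is not part of the alternative itself, the cause was not tested.

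Near-zero correlations changed sign. Mt3 with Mt1 was -0.11 and Mt3 with Mt2 -0.13 without the 9 libraries, and Mt3 with Mt2 was -0.0298 in WT. With the zinc list, Mt1 was -0.16 in KO and -0.0786 without the 9, and Mt2 -0.13 and -0.069. With the cerebellar list, Mt1 was -0.21 in WT, and Mt3 0.0417 in KO and 0.11 without the 9. With the glucocorticoid-induced list, Mt3 was -0.0126 in KO and -0.0268 without the 9.

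The replicate block gave 623 called genes with vehicle, 325 with dm-αKG and 0 for the treatments and interaction, so it changed no call of a member. The 48 same-numbered pairs had a mean correlation of deviations of 0.089 (range -0.75 to 0.87), against -0.00052 for other pairs. The interaction uses all 4 groups, so its fit on only the groups compared is the same and was not run separately. Mt4, at 7 counts in all, had too few counts to be tested.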
